A study of Homo sapiens with 6 samples.

Results

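Leukocyte surface antigens are membrane proteins that mark blood cells, and 10 genes that encode them were followed in the MACE-Seq data of a leukemia cell line with and without forced expression of the transcription factor EGR3. They were taken by gene symbol from the 35410 genes of the deposited table, with earlier results of these data known, and each symbol matched exactly 1 row. The genes were PTPRC, CD37, CD53, CD48, CD52, CD72, CD24, MS4A1, CD27 and CD40. SEM cells are an established human B cell precursor leukemia line of the proB stage that carries the KMT2A::AFF1 fusion. SEM::EGR3 cells were transfected with an EGR3 expression vector under doxycycline control, SEM::mock cells with the empty vector. Cells of each line received 1 µg/mL doxycycline for 48 h before RNA was prepared, so the drug is shared by both lines and no uninduced cells were analysed here. Each line was measured in 3 biological replicates. Whether each line is 1 clone or a pool of transfected cells is not given in the sources used here. As 1 line of each kind was compared, other differences between the lines cannot be told apart from EGR3 expression.

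PTPRC encodes CD45, the transmembrane tyrosine phosphatase that sets the activity of SRC family kinases at antigen receptors. CD37 and CD53 are tetraspanins, which gather partner proteins into membrane microdomains. CD48, CD52 and CD24 are held in the outer leaflet by a glycosylphosphatidylinositol (GPI) anchor, CD48 as a SLAM family adhesion receptor, CD52 and CD24 as very short, heavily glycosylated peptides. CD72 is a C-type lectin-like inhibitory coreceptor of B cells. MS4A1 encodes CD20, a protein that spans the B cell membrane several times. CD27 and CD40 belong to the TNF receptor family and signal through TRAF adaptors. In normal B cell development CD24 is strongly expressed on precursors, whereas CD20 and CD40 become abundant as the cells mature and CD27 marks memory B cells.

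MACE-Seq samples the 3′ end of each polyadenylated RNA, so a count reflects the number of transcript ends and needs no correction for gene length. Levels are given as TMM-normalized CPM, that is counts per 1000000 counts of a library after correction for composition, and differences as log2 fold change of SEM::EGR3 over SEM::mock from edgeR's quasi-likelihood test, with its standard error (SE) and Benjamini-Hochberg adjusted p-values over the 15465 genes that had enough counts. Depth ranged from 5286115 to 6181388 counts in SEM::mock and from 7293092 to 15106018 in SEM::EGR3, so low counts are less certain in SEM::mock. EGR3 itself gave 8, 10 and 6 counts across the SEM::mock replicates against 9768, 4952 and 5557 across those of SEM::EGR3. Against the label of a proB cell, SEM::mock held little B-lineage RNA. The 11 B-lineage markers (CD79A, PAX5 and others) summed to between 2.29 and 4.30 CPM per SEM::mock library. In SEM::EGR3 the sum was between 430 and 460 CPM, and 7 of 7 tested markers were higher. These 7 had enough counts for the test only through SEM::EGR3, so a lower marker could hardly appear among them. EBF1, BLNK, DNTT and RAG2 had 0 counts in all 3 SEM::mock libraries. In SEM::EGR3, EBF1 gave 2058, 925 and 1145 counts, while BLNK, DNTT and RAG2 had at most 2 in any library. BLNK, DNTT, RAG2 and VPREB1 (8, 6 and 5 counts in SEM::EGR3) were too low to be tested. Of the other cell type lists, the summed level of 13 T cell markers was 86.8 to 99.0 CPM in SEM::mock and 86.8 to 90.7 CPM in SEM::EGR3 (2 higher, 3 lower of 5 tested, CD8A at 0 in every library). The 8 NK cell markers lay at 38.5 to 43.5 and 42.4 to 46.4 CPM (1 higher, 2 lower of 4), the 11 listed myeloid markers at 310 to 319 and 120 to 125 CPM (1 higher, 3 lower of 4). The 7 plasma cell markers lay at 68.0 to 74.4 and 154 to 162 CPM (5 higher of 5), the 9 listed erythroid and megakaryocyte markers at 1500 to 1590 and 2960 to 3130 CPM (3 higher, 4 lower of 7). Higher and lower mean an adjusted p-value under 0.05 (edgeR), which 36.5% and 32% of all tested genes met in these directions. The part of these differences in the results below was not tested, and in bulk RNA more cells with a transcript cannot be told apart from more transcript per cell.

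The stretches of DNA before the starts of 4 of the genes are shown because these genes changed most among the tested antigens with a sequence at hand, CD52, CD48 and CD72 upwards and CD24 downwards. They are the 250 bases upstream of the RefSeq start in GRCh38.p14, written 5′ to 3′ on the gene's strand: chr1:26317708-26317957 (plus strand) for CD52, chr1:160711823-160712072 (minus strand) for CD48, chr9:35618414-35618663 (minus strand) for CD72 and chr6:106975628-106975877 (minus strand) for the outermost of the CD24 starts. Capitals mark CG dinucleotides.
CD52: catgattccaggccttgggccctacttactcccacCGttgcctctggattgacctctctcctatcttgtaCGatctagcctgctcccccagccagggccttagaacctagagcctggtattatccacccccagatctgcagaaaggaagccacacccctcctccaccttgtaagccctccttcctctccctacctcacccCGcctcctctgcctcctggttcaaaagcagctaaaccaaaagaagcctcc
CD48: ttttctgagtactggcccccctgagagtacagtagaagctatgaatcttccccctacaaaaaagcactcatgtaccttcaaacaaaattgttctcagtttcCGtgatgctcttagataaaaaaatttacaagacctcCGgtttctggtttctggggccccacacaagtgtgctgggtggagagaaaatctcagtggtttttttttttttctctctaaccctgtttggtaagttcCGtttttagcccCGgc
CD72: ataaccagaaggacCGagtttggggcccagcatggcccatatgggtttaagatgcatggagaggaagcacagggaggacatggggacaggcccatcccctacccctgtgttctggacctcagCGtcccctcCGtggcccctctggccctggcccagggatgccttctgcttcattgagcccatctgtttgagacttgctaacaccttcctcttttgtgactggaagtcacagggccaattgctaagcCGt
CD24: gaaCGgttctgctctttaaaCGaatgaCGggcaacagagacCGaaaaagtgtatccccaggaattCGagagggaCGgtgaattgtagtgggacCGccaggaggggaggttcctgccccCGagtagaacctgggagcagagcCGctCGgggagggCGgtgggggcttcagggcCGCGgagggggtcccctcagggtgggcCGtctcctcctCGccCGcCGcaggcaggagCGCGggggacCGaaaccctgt
The upstream stretch of CD24 held 20 CG dinucleotides, those of CD52, CD48 and CD72 held 3, 4 and 4. Over windows of 300 bases, from 250 before to 50 after the start, RefSeq promoters were at hand for 7 of the 10 genes in 10 windows. The 3 CD24 windows held 25, 36 and 21 CG dinucleotides, and the windows of CD52, CD53, CD48, PTPRC, CD72 and CD27 held 1 to 6, against a median of 14 over 35116 promoters. The motif GCGNGGGCG of the EGR family, searched on both strands, occurred in 0 of the 10 windows and in 9.43% of all promoters. This describes the letters of the windows only.

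Of the 10 genes, 8 had sufficient counts for the test, and 7 of these passed an adjusted p-value of 0.05. CD48, CD72, CD40 and CD52 were higher in SEM::EGR3 (4 genes), and CD24, PTPRC and CD53 lower (3 genes). As 68.5% of all tested genes passed the same threshold, 36.5% towards higher and 32% towards lower expression, the count of calls sets the antigens little apart from other genes. In 6 of the 8 tested genes the libraries of both lines did not overlap, which held for 70.1% of all tested genes. The sizes differed more than the calls. CD48, CD72, CD40 and CD52 were higher by a log2 fold change of 1 or more, as were 16.7% of all tested genes, and CD24 alone was lower by as much, as were 8.5%. CD48 and CD40 had enough counts for the test only through SEM::EGR3, so they could hardly have come out lower. This limits the count of higher genes and the median below. The median log2 fold change was 0.71 over the 8 tested genes and 0.03 over all tested genes, which describes a set of genes that was not chosen blind to these data.

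**Figure D1:**
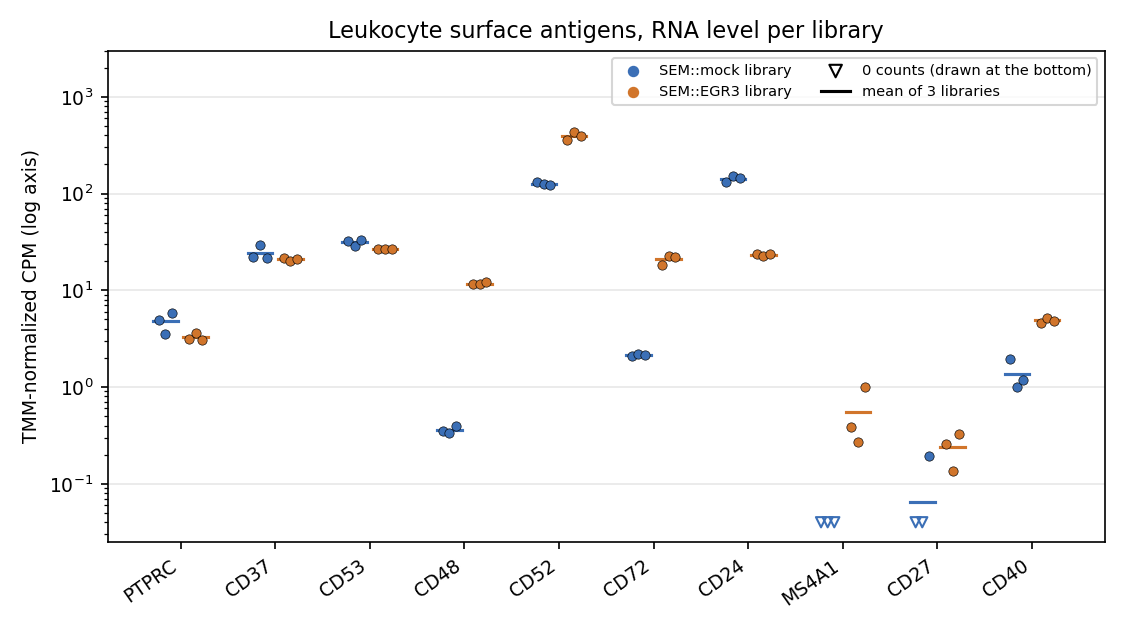
TMM-normalized CPM (log axis) of the 10 surface antigen genes in each of 3 SEM::mock and 3 SEM::EGR3 libraries, with lines at the means and open triangles for 0 counts. CD24 falls from 143 to 23.4 CPM while CD52 rises from 127 to 394 CPM, and CD48 and CD72 leave the range of their SEM::mock libraries, whereas CD37, CD53 and PTPRC stay close to theirs.

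PTPRC (ENSG00000081237, chromosome 1 of GRCh38, 198638457 to 198757476, plus strand) gave 28, 21 and 30 counts across the SEM::mock replicates against 49, 27 and 28 across those of SEM::EGR3. This corresponds to 4.93, 3.50 and 5.86 CPM against 3.15, 3.62 and 3.08 CPM, and SEM::mock replicate 2 lay within the range of SEM::EGR3. CD45 is a common marker of leukocytes, and its RNA was scarce in both lines. Its level fell by 0.54 on the log2 scale (SE 0.23, adjusted p = 0.0419, edgeR). This call was lost under 11 of 14 other settings, among them DESeq2 (adjusted p = 0.129). Without SEM::mock replicate 1 or 3 or SEM::EGR3 replicate 1 or 3, the adjusted p-values were 0.0957, 0.206, 0.110 and 0.0870 (edgeR). As the reads lie at the 3′ end, the variable exons that distinguish the CD45 isoforms were not measured.

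HNRNPLL, an RNA-binding protein that controls the splicing of CD45, was lower in SEM::EGR3 with 29.3 ± 1.72 CPM (SD, n = 3) against 49.0 ± 1.78 CPM (SD, n = 3) in SEM::mock, a log2 fold change of -0.75 (SE 0.08, adjusted p = 9.70e-09, edgeR). CD22, an inhibitory lectin of B cells that binds CD45 among other ligands, gave 2, 1 and 1 counts across the SEM::mock replicates against 327, 182 and 230 across those of SEM::EGR3. The ratio of its normalized counts was 96.7 with a 95% counting interval from 37.6 to 356. All 5 tested CD45 partners and regulators passed the threshold, 2 higher and 3 lower, against 68.5% of all tested genes. CSK, the kinase that opposes CD45 at SRC family kinases, was lower by a small margin (log2 fold change -0.25, SE 0.07, adjusted p = 0.00275, edgeR). LGALS1, a galectin that binds CD45, fell by 0.57 on the log2 scale (484 ± 11.3 against 328 ± 27.0 CPM, SD, n = 3 each). Among the other receptor-type tyrosine phosphatases, 12 of 19 were tested, and 3 were higher and 4 lower, with a median log2 fold change of -0.02. PTPRR and PTPRF showed increases of 1.62 and 1.06, and PTPRB and PTPRJ decreases to -1.41 and -0.49, all on the log2 scale. These 4 were named for the largest changes in each direction among called genes above the count limit given below. A comparison of their size with that of PTPRC is therefore not informative. Below that limit, PTPRE (0 counts in every SEM::mock library), PTPRU and PTPRH passed the threshold with log2 fold changes of 8.81, -1.72 and -0.62. The remaining 5 of the 12 tested genes did not pass it.

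CD53 (ENSG00000143119, chromosome 1, 110871188 to 110899928, plus strand) gave 185, 170 and 171 counts across the SEM::mock replicates against 417, 199 and 243 across those of SEM::EGR3. Normalized, these were 32.6, 28.4 and 33.4 CPM against 26.8, 26.7 and 26.7 CPM. All SEM::EGR3 libraries lay below all SEM::mock libraries by a small margin (log2 fold change -0.23, SE 0.09, adjusted p = 0.0276, edgeR). The call was lost under 10 of 14 other settings, with DESeq2 at an adjusted p = 0.0929, and without SEM::mock replicate 1 or 3 or SEM::EGR3 replicate 1 or 3 the adjusted p-values were 0.0672, 0.0879, 0.0641 and 0.0577 (edgeR). CD37 (ENSG00000104894, chromosome 19, 49335171 to 49343335, plus strand) gave 126, 176 and 110 counts across the SEM::mock replicates against 338, 150 and 192 across those of SEM::EGR3, or 22.2, 29.4 and 21.5 CPM against 21.7, 20.1 and 21.1 CPM. The libraries of both lines overlapped, SEM::mock replicate 2 stood above the rest, and the log2 fold change of -0.21 (SE 0.11) did not pass the threshold (adjusted p = 0.0910, edgeR). Without SEM::mock replicate 2 it was -0.06 (adjusted p = 0.650), without SEM::mock replicate 1 or 3 it was -0.30 (adjusted p = 0.0353) or -0.31 (adjusted p = 0.0303). Exons of CD37 overlap those of TEAD2 on the opposite strand, which was at 20.9 CPM in SEM::mock and 4.40 CPM in SEM::EGR3 on average. The strand setting of the counting is not given in the sources used here, and the part of TEAD2 reads was not tested.

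Of the other tetraspanins, 20 of 28 listed genes were tested, with 9 higher, 9 lower and 2 not past the threshold, and a median log2 fold change of 0.09. TSPAN17, which belongs to the tetraspanins that guide the protease ADAM10, rose from 47.1 ± 2.06 to 535 ± 17.0 CPM (SD, n = 3 each), which is a log2 fold change of 3.51 (SE 0.06, adjusted p = 9.97e-24, edgeR). ROM1, best known from photoreceptor discs, increased from 2.63 ± 0.903 to 10.1 ± 1.20 CPM (SD, n = 3 each). TSPAN18 and TSPAN5 fell by 1.79 and 0.92 on the log2 scale. CD81, a widely expressed tetraspanin, was named after its values were seen: it gave 1654, 1871 and 1541 counts across the SEM::mock replicates against 10830, 4898 and 5865 across those of SEM::EGR3, a log2 fold change of 1.14 (SE 0.05, adjusted p = 1.00e-15, edgeR). The leukocyte tetraspanins CD37 and CD53 thus lay among the family members with small differences.

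CD24 (ENSG00000272398, chromosome 6, 106969831 to 106975627, minus strand) gave 746, 920 and 741 counts across the SEM::mock replicates against 370, 170 and 215 across those of SEM::EGR3, although the latter libraries were deeper. Normalized, this was 131, 153 and 145 CPM against 23.8, 22.8 and 23.7 CPM, so all SEM::EGR3 libraries lay far below all SEM::mock libraries. The log2 fold change was -2.61 (SE 0.07, adjusted p = 5.51e-20, edgeR), which is 6.10-fold lower, and it ranked 50 among the 15465 tested genes counted from the largest decrease. Leaving out each library in turn gave values between -2.69 and -2.57. CD24 has near-identical pseudogene copies elsewhere in the genome, and how reads matching several places were counted is not given in the sources used here.

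CD52 (ENSG00000169442, chromosome 1, 26317957 to 26320523, plus strand), the target of the antibody alemtuzumab, gave 750, 753 and 628 counts across the SEM::mock replicates against 5593, 3199 and 3572 across those of SEM::EGR3. These counts correspond to 132, 126 and 123 CPM and to 359, 429 and 393 CPM, with every SEM::EGR3 library above every SEM::mock library. The log2 fold change of 1.63 (SE 0.06, adjusted p = 4.35e-17, edgeR) is a 3.10-fold increase. In absolute terms the gain of CD52 transcripts was the largest of the 10 genes. Exons of UBXN11 on the opposite strand overlap CD52, and UBXN11 was at 9.30 CPM in SEM::mock and 11.7 CPM in SEM::EGR3, far below CD52.

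CD48 (ENSG00000117091, chromosome 1, 160678746 to 160711851, minus strand) gave 2 counts in every SEM::mock library and 181, 86 and 110 counts in SEM::EGR3. Its level in SEM::EGR3 was 11.6, 11.5 and 12.1 CPM. From 6 against 377 counts in all, the ratio of normalized counts was 32.9 with a 95% counting interval from 15.0 to 90.1. The fitted log2 fold change was 4.98 (SE 0.30, adjusted p = 1.60e-13, edgeR), the largest of the 8 tested antigens, and its size is less certain than its direction because SEM::mock was close to 0. An antisense transcript that overlaps CD48, AL121985.1, gave 1, 0 and 2 counts across the SEM::mock replicates against 6, 3 and 5 across those of SEM::EGR3.

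CD48 lies in the SLAM gene cluster, between SLAMF1 and SLAMF7 as the nearest tested genes at 31.5 and 27.2 kb. SLAMF1, a self-ligand receptor of lymphocytes, rose from 2.58 ± 0.470 to 10.5 ± 0.826 CPM (SD, n = 3 each, log2 fold change 2.01, SE 0.20, adjusted p = 3.78e-09, edgeR). SLAMF7, the target of the antibody elotuzumab, went the other way with 39, 29 and 26 counts across SEM::mock against 19, 8 and 5 across SEM::EGR3, a log2 fold change of -2.48 (SE 0.29, adjusted p = 3.79e-08, edgeR). The neighbours on either side of CD48 thus changed in opposite directions. Of the receptors that bind CD48, CD244 was at 2.79 ± 0.793 CPM in SEM::mock and 2.48 ± 0.536 CPM in SEM::EGR3 (SD, n = 3 each, log2 fold change -0.23, SE 0.28, adjusted p = 0.482, edgeR). CD2, which prefers CD58 in humans, gave 1, 0 and 0 counts across the SEM::mock replicates against 31, 21 and 18 across those of SEM::EGR3, a ratio of normalized counts of 36.6 with a 95% counting interval from 6.36 to 1470. CD58 rose by 0.38 on the log2 scale (SE 0.09, adjusted p = 0.000319, edgeR). Of 7 tested SLAM and CD2 family genes, 4 were higher and 2 lower, and CD84 had the largest decrease among those of at least 100 counts (37.6 ± 1.47 to 13.7 ± 0.970 CPM, SD, n = 3 each).

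CD24 and CD52 share a receptor, SIGLEC10, an inhibitory lectin that binds sialylated glycans on both. SIGLEC10 rose from 1.47 ± 0.480 to 8.81 ± 1.67 CPM (SD, n = 3 each), which is a log2 fold change of 2.52 (SE 0.26, adjusted p = 6.27e-09, edgeR). Of 15 listed SIGLEC genes 5 were tested, of which CD22 and SIGLEC10 were higher and CD33, SIGLEC6 and SIGLEC14 lower. CD33, a myeloid antigen, declined from 124 ± 4.03 to 47.9 ± 2.19 CPM (SD, n = 3 each). SIGLEC6 and SIGLEC14, named here to complete the count, had log2 fold changes of -3.01 and -1.39.

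CD24, CD52 and CD48 all depend on the enzymes that build and attach GPI anchors. Of 28 tested genes of this pathway 7 were higher, 8 lower and 13 not past the threshold, with a median log2 fold change of -0.05, and 53.6% passed the threshold against the 68.5% of all tested genes. PIGH, a subunit of the first enzyme of the pathway, fell from 32.5 ± 2.23 to 11.6 ± 0.372 CPM (SD, n = 3 each), and PIGS, a subunit of the transamidase that transfers the anchor to the protein, from 101 ± 4.82 to 59.2 ± 3.59 CPM (SD, n = 3 each). PGAP3, which remodels the lipid part of the anchor, and PIGO, which adds ethanolamine phosphate, rose by log2 fold changes of 1.12 and 1.10. Of the other GPI-anchored leukocyte proteins, all 10 tested genes passed the threshold, 4 higher and 6 lower. Among those averaging 100 or more counts in SEM::mock or SEM::EGR3, CD109 gained most (4.13 ± 1.18 to 24.5 ± 2.80 CPM, SD, n = 3 each) and PRNP a little (log2 fold change 0.40). CD55, a complement regulator, fell from 58.2 ± 3.15 to 19.2 ± 2.44 CPM and LY6E from 284 ± 7.65 to 161 ± 6.78 CPM (SD, n = 3 each). As with CD24, CD52 and CD48, other GPI-anchored proteins changed in either direction.

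CD72 (ENSG00000137101, chromosome 9, 35609533 to 35646810, minus strand) gave 12, 13 and 11 counts across the SEM::mock replicates against 284, 167 and 199 across those of SEM::EGR3. This corresponds to 2.11, 2.17 and 2.15 CPM against 18.2, 22.4 and 21.9 CPM, without overlap. The log2 fold change was 3.25 (SE 0.19, adjusted p = 8.86e-14, edgeR), a 9.50-fold increase. Exons of CD72 overlap those of TESK1 on the opposite strand, a kinase gene with 43, 62 and 57 counts across SEM::mock against 977, 492 and 556 across SEM::EGR3 (log2 fold change 2.71, SE 0.11, adjusted p = 4.11e-17, edgeR). Without a stated strand setting, reads of TESK1 and CD72 cannot be told apart in the overlap, and the part of TESK1 in the CD72 value was not tested. The nearest tested gene without overlap was SIT1, an adaptor protein of lymphocyte receptors, 2.48 kb from the annotated outer end of CD72. The RefSeq start of CD72 used above lies inside the annotated gene, so SIT1 is further from that start. SIT1 gave 1, 1 and 0 counts across the SEM::mock replicates against 1679, 948 and 1020 across those of SEM::EGR3.

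SEMA4D, the semaphorin ligand of CD72, was also higher in SEM::EGR3, with 20.9 ± 2.41 against 8.07 ± 1.74 CPM (SD, n = 3 each, log2 fold change 1.36, SE 0.14, adjusted p = 9.06e-09, edgeR). CD5, proposed as a further ligand, gave no count in SEM::mock and 6, 1 and 3 across SEM::EGR3, and was too low to be tested. Of the 5 tested genes among the ligands and lectin-like relatives of CD72, 3 were higher and 1 lower. CLEC2B, an activation-induced lectin, rose from 36.0 ± 3.73 to 164 ± 3.40 CPM (SD, n = 3 each, log2 fold change 2.19, SE 0.07, adjusted p = 1.12e-18, edgeR).

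MS4A1 (ENSG00000156738, chromosome 11, 60455752 to 60470760, plus strand) was absent from the counts of all 3 SEM::mock libraries and gave 6, 2 and 9 counts in the SEM::EGR3 libraries, on average 0.548 ± 0.388 CPM (SD, n = 3). With 0 counts over all SEM::mock libraries, up to 3 counts over the group are allowed, which is 0.179 CPM. With the SEM::EGR3 counts taken as exact, its level in SEM::EGR3 was at least 2.96-fold higher. This limit covers counting error in SEM::mock only and is not comparable with the intervals above. Those intervals cover counting error in both lines and no other error. MS4A1 did not reach the expression filter, and without a filter it passed the threshold (adjusted p = 0.00284 over 34056 genes, edgeR). The RNA of CD20 thus stayed far below that of CD72 or CD48 in the same libraries. Of the other MS4A genes, both that were tested were lower in SEM::EGR3: MS4A3, a gene of granulocyte precursors, had 365, 382 and 297 counts against 79, 43 and 49, and MS4A4A, the nearest tested neighbour of MS4A1 at 138 kb, had 79, 83 and 68 counts against 16, 9 and 16. Their log2 fold changes were -3.54 and -3.40 (SEs 0.10 and 0.21, adjusted p = 1.32e-19 and 2.76e-13, edgeR).

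CD40 (ENSG00000101017, chromosome 20, 46118272 to 46129863, plus strand), the receptor through which T cells help B cells, gave 11, 6 and 6 counts across the SEM::mock replicates against 72, 39 and 44 across those of SEM::EGR3. Normalized levels were 1.94, 1.00 and 1.17 CPM and 4.63, 5.23 and 4.84 CPM, without overlap. The log2 fold change of 1.81 (SE 0.28, adjusted p = 3.62e-06, edgeR) corresponds to a 3.51-fold increase and ranged from 1.60 to 2.13 when each library was omitted. CD27 (ENSG00000139193, chromosome 12, 6444867 to 6451718, plus strand) gave 0, 0 and 1 counts across the SEM::mock replicates against 4, 1 and 3 across those of SEM::EGR3, too few for the test. The ratio of its normalized counts was 4.19 with a 95% counting interval from 0.561 to 186, so a difference was not detectable at this depth. CD27-AS1, whose exons overlap CD27 on the opposite strand, gave 18, 22 and 21 counts across the SEM::mock replicates against 269, 132 and 118 across those of SEM::EGR3 (log2 fold change 2.14, SE 0.19, adjusted p = 2.13e-10, edgeR). TAPBPL overlaps CD27 on the same strand, and its log2 fold change of 0.26 did not pass the threshold (adjusted p = 0.213, edgeR).

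The ligands of these receptors were scarce. CD70, the ligand of CD27, rose from 5, 12 and 4 counts to 50, 36 and 33 counts (log2 fold change 1.57, SE 0.33, adjusted p = 0.000184, edgeR). CD40LG, the ligand of CD40 and mainly a product of activated T cells, had 0 counts in 5 libraries and 1 count in SEM::EGR3 replicate 2. Among the 14 tested ligands and adaptors of CD27 and CD40, 6 were higher and 5 lower, with a median log2 fold change of 0.02. TRAF1, an NF-κB-inducible adaptor, gave 2, 0 and 4 counts across the SEM::mock replicates against 28, 12 and 17 across those of SEM::EGR3 (log2 fold change 2.26, SE 0.52, adjusted p = 0.000436, edgeR), and MAP3K14, the kinase of the non-canonical NF-κB pathway, rose by 0.89 on the log2 scale. TRAF2, which binds both receptors, was at 38.8 ± 3.38 and 35.7 ± 1.64 CPM (SD, n = 3 each) and did not pass the threshold (adjusted p = 0.248, edgeR). TRAF3, TRAF5, TRAF6 and TRAF4 were lower with log2 fold changes of -0.75, -0.93, -0.30 and -1.22. BIRC3, named here to complete the lower genes, had the largest decrease of the list. It fell from 6.22 ± 0.972 to 1.63 ± 0.207 CPM (SD, n = 3 each, log2 fold change -1.89, SE 0.24, adjusted p = 1.43e-07, edgeR). SIVA1, a death-domain protein that binds the tail of CD27, increased by 0.35 on the log2 scale, from 227 ± 10.4 to 289 ± 6.65 CPM (SD, n = 3 each).

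Of the other TNF receptor family genes, 5 were higher and 10 lower among 16 tested, with a median log2 fold change of -0.54. TNFRSF13C, which encodes the BAFF receptor of B cells, rose from 8, 8 and 6 counts to 833, 384 and 440 counts (log2 fold change 5.28, SE 0.16, adjusted p = 1.86e-19, edgeR). TNFRSF4, the costimulatory receptor OX40, went from 3, 1 and 1 counts to 409, 206 and 250 counts. The TRAIL death receptors TNFRSF10A and TNFRSF10B fell by 2.27 and 1.98 on the log2 scale (18.3 ± 1.27 to 3.89 ± 0.469 CPM and 38.8 ± 1.01 to 9.99 ± 0.885 CPM, SD, n = 3 each). Receptors related to CD40 thus changed in either direction.

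**Figure D2:**
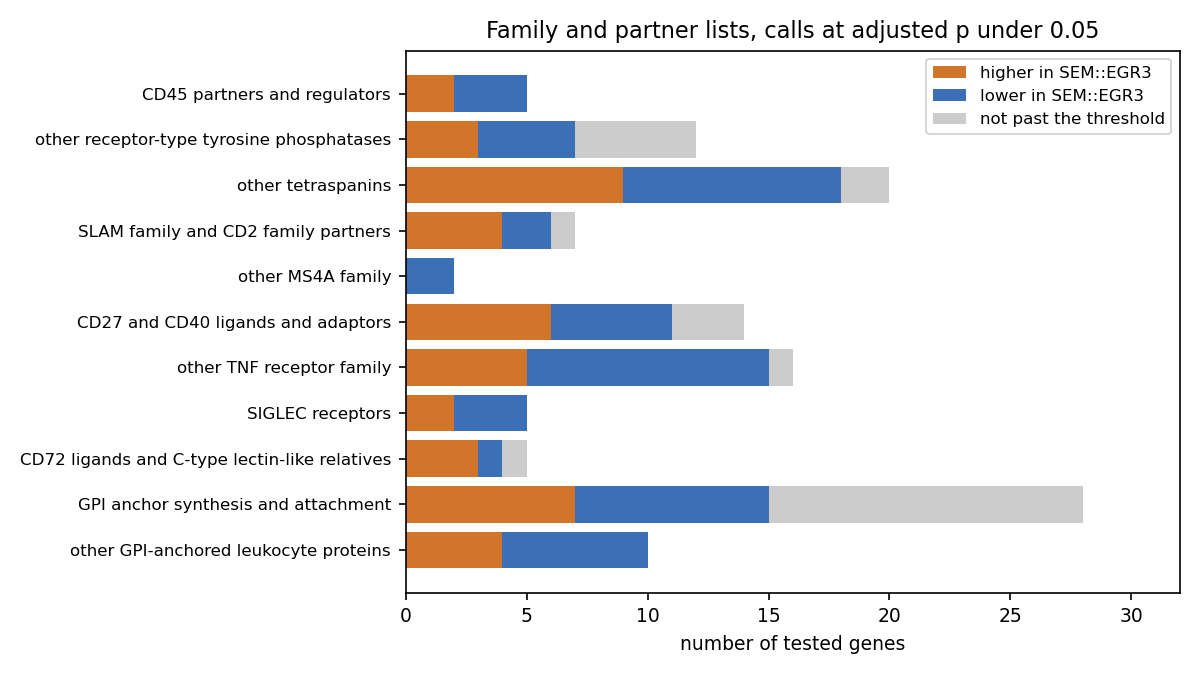
Number of tested genes higher, lower or not past the threshold (adjusted p under 0.05, edgeR) in each family or partner list of the surface antigens. Most lists hold genes of either direction, such as 9 higher and 9 lower among 20 other tetraspanins, and the other MS4A genes are 2 lower of 2 tested.

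**Figure D3:**
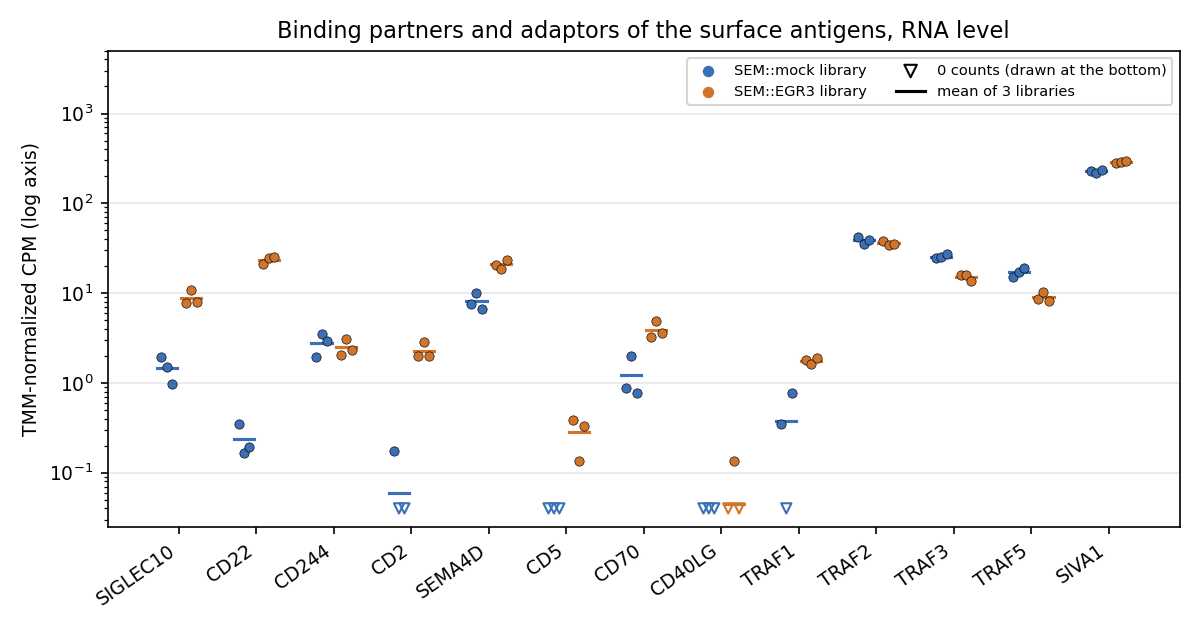
TMM-normalized CPM (log axis) of binding partners and adaptors of the surface antigens in each of 3 SEM::mock and 3 SEM::EGR3 libraries, with lines at the means and open triangles for 0 counts. SIGLEC10, CD22, SEMA4D, CD70 and TRAF1 lie higher in SEM::EGR3, TRAF3 and TRAF5 lower, and CD40LG has 1 count in all.

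The changes altered the order of the antigens within a library. In SEM::mock, CD24 (143 ± 11.2 CPM) and CD52 (127 ± 4.77 CPM) stood at the top with overlapping libraries, followed by CD53 (31.4 ± 2.70 CPM) and CD37 (24.3 ± 4.36 CPM), which also overlapped, and then by PTPRC, CD72, CD40 and CD48 in non-overlapping steps from 4.76 to 0.359 CPM (all SD, n = 3). In SEM::EGR3, CD52 (394 ± 34.9 CPM) stood alone. CD53 (26.7 ± 0.0454 CPM), CD24 (23.4 ± 0.528 CPM), CD37 (21.0 ± 0.804 CPM) and CD72 (20.9 ± 2.27 CPM) came next within a narrow range, the last pair with overlapping libraries (all SD, n = 3). CD48, CD40 and PTPRC followed without overlap at 11.8, 4.90 and 3.28 CPM, and MS4A1 and CD27 overlapped below 1 CPM.

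The summed level of the 10 genes was 334 ± 8.49 CPM in SEM::mock and 507 ± 36.1 CPM in SEM::EGR3 (SD, n = 3 each). Without CD52, the sum was 208 ± 11.5 CPM in SEM::mock and 113 ± 2.13 CPM in SEM::EGR3. This fall was that of CD24, since without CD52 and CD24 the other 8 genes summed to 64.5 ± 0.364 CPM in SEM::mock and 89.3 ± 2.26 CPM in SEM::EGR3 (SD, n = 3 each). CD52 made up 40.3%, 36.5% and 36.9% of the sum in the SEM::mock libraries and 76.5%, 79.2% and 77.4% in the SEM::EGR3 libraries. CD24 made up 40.1%, 44.6% and 43.6% in SEM::mock and 5.06%, 4.21% and 4.66% in SEM::EGR3. The ratio of CD52 to CD24 within a library, which does not depend on the normalization, was 1.01, 0.818 and 0.848 in SEM::mock and 15.1, 18.8 and 16.6 in SEM::EGR3. CD72 contributed 0.641% ± 0.00891 in SEM::mock and 4.11% ± 0.216 in SEM::EGR3 (SD, n = 3 each). The ratio of CD37 to CD53, between 0.643 and 1.04 in SEM::mock and between 0.754 and 0.811 in SEM::EGR3, overlapped.

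**Figure D4:**
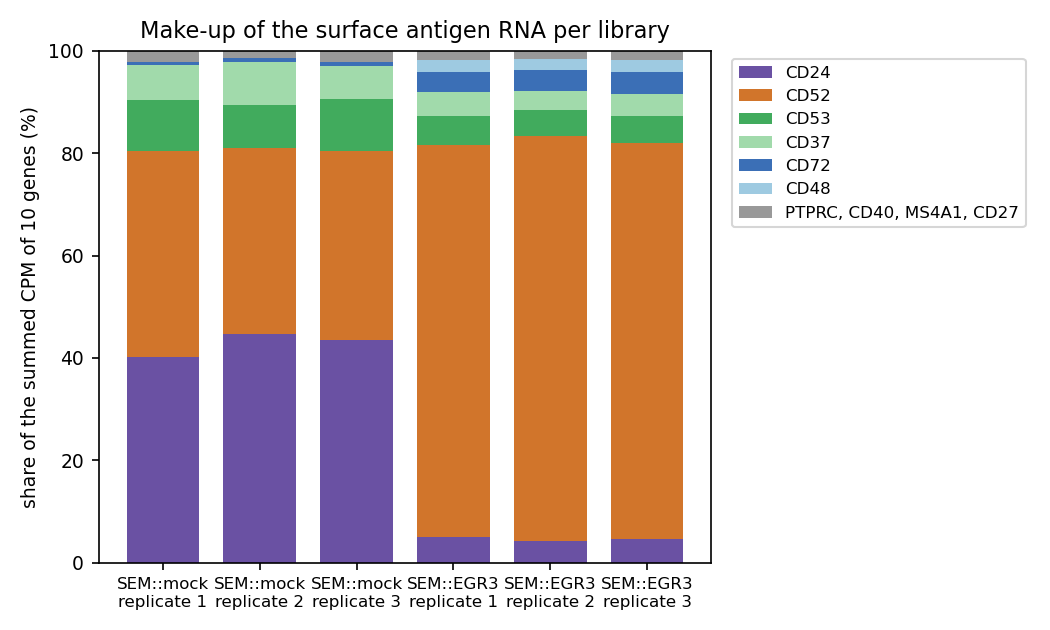
Share (%) of each surface antigen gene in the summed CPM of the 10 genes, 1 bar per library. CD24 and CD52 have similar shares in the 3 SEM::mock libraries, whereas CD52 takes 76.5% to 79.2% in the 3 SEM::EGR3 libraries and CD24 at most 5.06%.

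How firmly each change is known differed between the antigens. CD24, CD52 and CD72 passed the threshold with the same direction under all 14 other settings, and CD48 and CD40 under all 13 that kept them, since a minimum of 10 counts in every library removes both. CD53, CD37 and PTPRC had log2 fold changes between -0.74 and -0.06 throughout, and their calls depended on the setting.

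**Figure D5:**
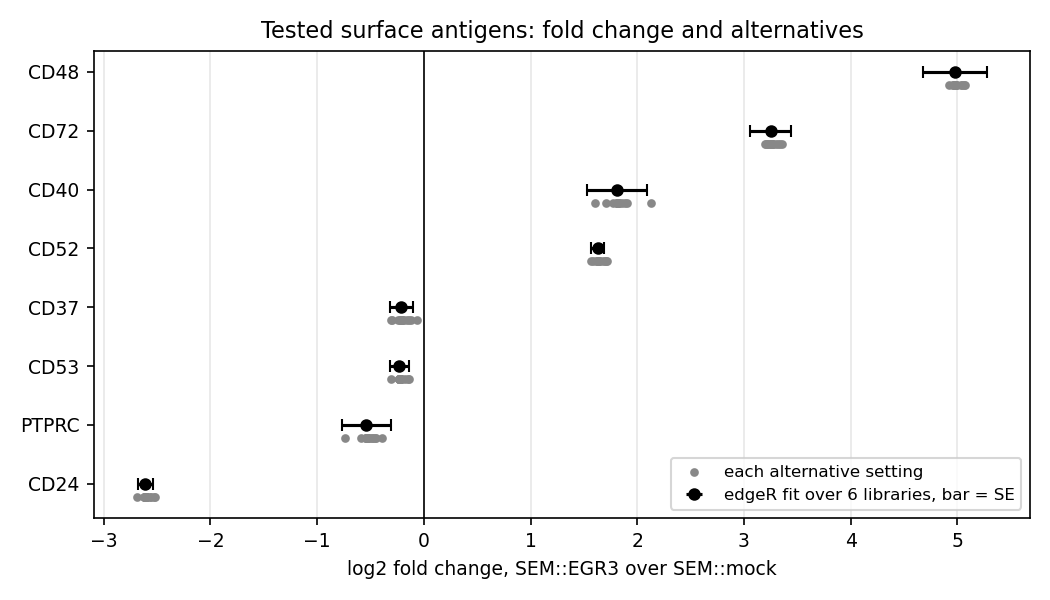
Fitted log2 fold change of SEM::EGR3 over SEM::mock for the 8 tested surface antigens (black, bar = standard error) and under each other setting (grey). CD48, CD72, CD40 and CD52 lie above 1 and CD24 between -2.69 and -2.52 in every setting, whereas CD37, CD53 and PTPRC lie between -0.74 and -0.06.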

How the data were processed

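SEM::mock and SEM::EGR3 cells were each sequenced by MACE-Seq in 3 biological replicates. The authors deposited 1 table of whole-number counts per gene, without normalization. It also holds deposited CPM values (headed TPM, counts per library total without length correction) and a deposited signal scale of counts divided by a size factor. Fold changes and p-values of the authors' own comparison were not used. Per the labels, bcl2fastq, Bowtie2, HTSeq and GRCh38 were used. Annotation release, strand setting and the use of molecular identifiers are not given in the sources used here. Column headings spell EGR3 as ERG3.

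In R 4.3.3, genes were filtered with filterByExpr, normalized by TMM and compared with glmQLFit and glmQLFTest of edgeR 4.0.16 over 6 libraries without covariates, with Benjamini-Hochberg adjustment over 15465 genes. Counting intervals are exact binomial. The procedure was run on simulated data with few changed genes, evenly higher and lower, and the same spread for every gene. In the real data most tested genes passed the threshold, so that run does not give the error rate here. Replicates differed by more than counting noise. DESeq2 1.42.0, other normalizations, library totals, filters, a minimum change, a replicate term and omission of each library were tried. Positions are from GENCODE release 29, which holds 97.0% of the gene identifiers. The 10 genes and all lists, among them markers of B, T, NK, myeloid, plasma and erythroid cells, were chosen with earlier results of these data known. Besides the 10 genes, the text names their binding partners, overlapping and neighbouring genes, and of each list up to 2 genes with the highest and 2 with the lowest log2 fold change among called genes with at least 100 counts on average in the higher line. PTPRCAP and a few other listed genes were not analysed here, and 1 B-lineage marker is not reported here.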

Additional observations from a re-analysis of the deposited data

How the results depend on the processing

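The number of genes called lay between 9938 and 10499 when 1 library was left out, and was 2768 with a minimum absolute log2 fold change of 1. The number of antigens called higher was 4 with each library left out and 2 when 10 counts were required of every library, which removes CD48 and CD40 by construction. Without a filter it was 5, MS4A1 included. The number called lower ranged from 1 to 3 with 1 library left out, being 1 without SEM::EGR3 replicate 1 and 1 without SEM::EGR3 replicate 3. It was also 1, with CD24 remaining, in 6 other settings, in which PTPRC and CD53 missed the threshold. Their log2 fold changes there were -0.46 and -0.15 without normalization factors, -0.45 and -0.14 with the authors' library totals, -0.54 and -0.23 without a filter, -0.48 and -0.18 with at least 10 counts in every library, -0.54 and -0.23 with a minimum change of 1, and -0.54 and -0.23 with DESeq2. The cause was not tested. With 1 library left out, PTPRC ranged from -0.74 to -0.39, CD53 from -0.31 to -0.20 and CD37 from -0.31 to -0.06. The median of all tested genes was 0.03, and 0.11 without normalization factors.

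With the replicate number as a block, PTPRC had a log2 fold change of -0.54 (adjusted p = 0.0668, edgeR) and 10082 genes were called. No other call on the antigens changed. Deviations of same-numbered libraries from the mean of their line correlated at -0.14, -0.09 and -0.04 across genes, so no pairing by number was seen. With 3 libraries per line, these values cannot exclude that same-numbered cultures were handled together. PTPRC, CD72, CD40, CD48, MS4A1 and CD27 are limited by depth in SEM::mock, with at most 30 counts in any SEM::mock library.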
